A study of Mus musculus with 6 samples.

Results

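Small structural and nucleolar RNAs were followed in RNA-seq libraries from hemibrains of newborn mice. The rows were taken by symbol: Snord or Snora followed by a digit, Scarna, Rnu followed by a digit, Rny and Rn7s, together with Rmrp, Rpph1, Rn45s and Terc. A row also needed at least 10 counts summed over the 6 libraries, and 97 of the 24391 rows in the count table met both conditions. These 97 were 53 box C/D small nucleolar RNAs (snoRNAs) outside imprinted clusters, Snord64 of an imprinted cluster, 30 box H/ACA snoRNAs and 7 small Cajal body RNAs. The others were Rmrp and Rpph1, the catalytic RNAs of RNase MRP and RNase P, Rnu11 and Rnu12 of the minor spliceosome, the telomerase RNA Terc and the ribosomal RNA precursor Rn45s. The row Rnu73b is a box C/D snoRNA by sequence and name and was counted with that class. Of the 121 rows with a fitting symbol, 24 had fewer than 10 counts, and 12 of those had 0 counts in every library, Snord116 among them. Just inside the minimum were Snord93 and Snord43 with 10 counts each, and just outside were Snord111 with 9 and Snord85 with 8. The minimum used the sum over both genotypes and not their difference. However, 7 members had fewer than 10 counts outside null replicate 2 and would not have met the minimum without that library. They were Rnu11, Rnu12, Scarna10, Snora62, Snord15a, Snord43 and Snord93. None of the 121 rows was a Y RNA, an Rn7s row or an RNA of the major spliceosome, so these were not analysed here.

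The study set 3 libraries labelled Celf2 -/- (null, replicates 2, 4 and 10) against 3 libraries labelled Celf2 +/- (heterozygous, replicates 6, 7 and 11), all from mouse brain at postnatal day 0. CELF2 is an RNA-binding protein, and the heterozygous animals still carry 1 Celf2 allele, so no wild type enters the comparison. The replicate numbers are those of the pups, and the labels give no strain, sex, litter or batch, so p-values measure the spread between these samples. Per the labels' protocols the libraries were made from total RNA with a stranded low-input kit, whereas the molecule field and the series' design text name poly(A) RNA. Most of the RNAs described here carry no poly(A) tail, so their levels depend on which is right.

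Small nucleolar RNAs guide chemical changes of ribosomal RNA by base pairing with it. Box C/D snoRNAs bind fibrillarin and direct ribose methylation, and box H/ACA snoRNAs bind dyskerin and direct the isomerisation of uridine to pseudouridine. Cajal body RNAs do the same for the RNAs of the spliceosome. In mammals most of them are cut out of introns of host genes, many of which encode ribosomal proteins or translation factors. RNase MRP cleaves the ribosomal RNA precursor and RNase P trims transfer RNAs, and their RNA subunits are transcribed from genes of their own by RNA polymerase III.

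The sequences of RNAs on which the results turn were taken from the GENCODE M21 transcripts (GRCm38). Snord17 and Snord15b are shown as long and Snord4a and Snord64 as short box C/D RNAs, with the C box TGATGA and the D box CTGA in capitals.
Snord17: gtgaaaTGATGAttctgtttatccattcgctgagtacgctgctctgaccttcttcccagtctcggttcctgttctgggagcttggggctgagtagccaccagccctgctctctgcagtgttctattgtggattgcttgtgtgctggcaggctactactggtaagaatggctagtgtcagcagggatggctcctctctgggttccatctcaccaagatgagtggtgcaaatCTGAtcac
Snord15b: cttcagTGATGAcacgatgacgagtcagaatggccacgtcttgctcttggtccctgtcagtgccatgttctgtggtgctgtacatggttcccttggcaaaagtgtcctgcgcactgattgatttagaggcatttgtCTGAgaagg
Snord4a: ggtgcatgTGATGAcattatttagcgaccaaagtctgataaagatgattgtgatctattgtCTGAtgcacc
Snord64: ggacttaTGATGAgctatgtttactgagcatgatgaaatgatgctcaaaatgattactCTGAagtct
Snora52 is a box H/ACA RNA, with the ACA motif near its end in capitals.
Snora52: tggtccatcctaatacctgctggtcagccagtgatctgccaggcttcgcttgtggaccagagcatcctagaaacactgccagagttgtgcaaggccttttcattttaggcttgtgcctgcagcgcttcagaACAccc
Rnu11 and Rnu12 recognise the splice site and the branch point of minor introns, and their Sm protein binding motif, ATTTTTTG or ATTTTTG, is in capitals.
Rnu11: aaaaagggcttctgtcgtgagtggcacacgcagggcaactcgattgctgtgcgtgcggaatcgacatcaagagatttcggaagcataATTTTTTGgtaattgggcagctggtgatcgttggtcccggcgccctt
Rnu12: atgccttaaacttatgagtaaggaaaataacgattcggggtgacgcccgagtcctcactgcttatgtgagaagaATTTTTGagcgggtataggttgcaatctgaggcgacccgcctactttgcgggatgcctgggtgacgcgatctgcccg
Rmrp is shown because its level differed widely between libraries, and no motif was marked in it.
Rmrp: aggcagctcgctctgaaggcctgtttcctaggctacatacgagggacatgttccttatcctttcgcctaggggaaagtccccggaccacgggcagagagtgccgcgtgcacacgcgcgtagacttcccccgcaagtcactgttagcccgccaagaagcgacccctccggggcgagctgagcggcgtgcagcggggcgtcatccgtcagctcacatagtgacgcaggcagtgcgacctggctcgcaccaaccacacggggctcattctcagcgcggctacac

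The motifs mostly separated box C/D from box H/ACA RNAs, but they did not set the Cajal body RNAs apart. On the RNA's own strand, the C box TGATGA within the first 20 bases was found in 32 of 54 box C/D RNAs (59.3%, Snord64 included) and in 0 of 30 box H/ACA RNAs. The D box CTGA within the last 20 bases was found in 52 of 54 box C/D RNAs (96.3%) and in 4 of 30 box H/ACA RNAs (13.3%). The trinucleotide ACA within the last 6 bases was found in 27 of 30 box H/ACA RNAs (90.0%) and in 3 of 54 box C/D RNAs. Of 7 Cajal body RNAs, 4 had the C box (57.1%), 5 the D box (71.4%) and 2 the ACA (28.6%). The Sm motif, searched over the whole RNA, was found in both Rnu11 and Rnu12 and in 1 of 30 box H/ACA RNAs (3.33%). Aligned end to end, 2 pairs of members shared at least 80% of their bases, Snord1b with Snord1c (97.4%) and Snord88a with Snord88c (94.4%). Counts of these 4 RNAs are uncertain, because reads may have been split between the copies.

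Libraries held between 28831997 and 36531980 counts, so 3 counts, the limit that a count of 0 allows, corresponded to 0.0807 to 0.118 CPM (counts relative to the TMM-scaled size of the library). Limits and intervals of this kind cover counting error only. Celf2 itself was at 448, 390 and 331 CPM in null replicates 2, 4 and 10 and at 459, 403 and 362 CPM in heterozygous replicates 6, 7 and 11. The groups overlapped (log2 fold change -0.07, SE 0.12, exact two-sided permutation p = 0.7, where the smallest possible is 0.1), so gene totals did not check the genotype labels. Neuronal markers summed to between 6061 and 6571 CPM in null libraries and between 5833 and 6541 CPM in heterozygous libraries. Of 8 erythroid markers 6, all of them globin rows, were at 0 in every library. The Hox genes of the hindbrain, 8 in number, summed to between 2.01 and 5.93 CPM in null libraries and between 9.74 and 113.04 CPM in heterozygous libraries. Of these, 5 were tested, with negative fold changes in all 5 and 0 called, and their part in the results given here was not tested. In bulk tissue, fewer cells of a type and less RNA per cell cannot be told apart.

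Null replicate 2 stood apart from the other libraries in this set of RNAs. The chi-square per gene over the whole table lay between 231.4 and 284.4 for the 5 pairs of libraries that held it. For the other 10 pairs it lay between 12.8 and 40.1. Rn45s was kept in these values and can weigh heavily in them, so they do not show a difference over the rest of the table. Null replicate 2 was the highest library for 18.4% of all genes tested, against 14.1% to 18.2% for each other library. Rn45s, the precursor from which the large ribosomal RNAs are cut, took 11.8%, 0.219% and 0.529% of the counts in null replicates 2, 4 and 10, against 1.27%, 0.270% and 0.194% in heterozygous replicates 6, 7 and 11. The high values were those of null replicate 2, heterozygous replicate 6 and null replicate 10, so the genotypes overlapped. The fitted log2 fold change of Rn45s was 3.07 (SE 2.05, 95% interval -2.54 to 8.67, edgeR adjusted p = 0.856, exact two-sided permutation p = 0.6, n = 3 each). It was -0.62 without null replicate 2, so that 1 library set the direction.

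**Figure D1:**
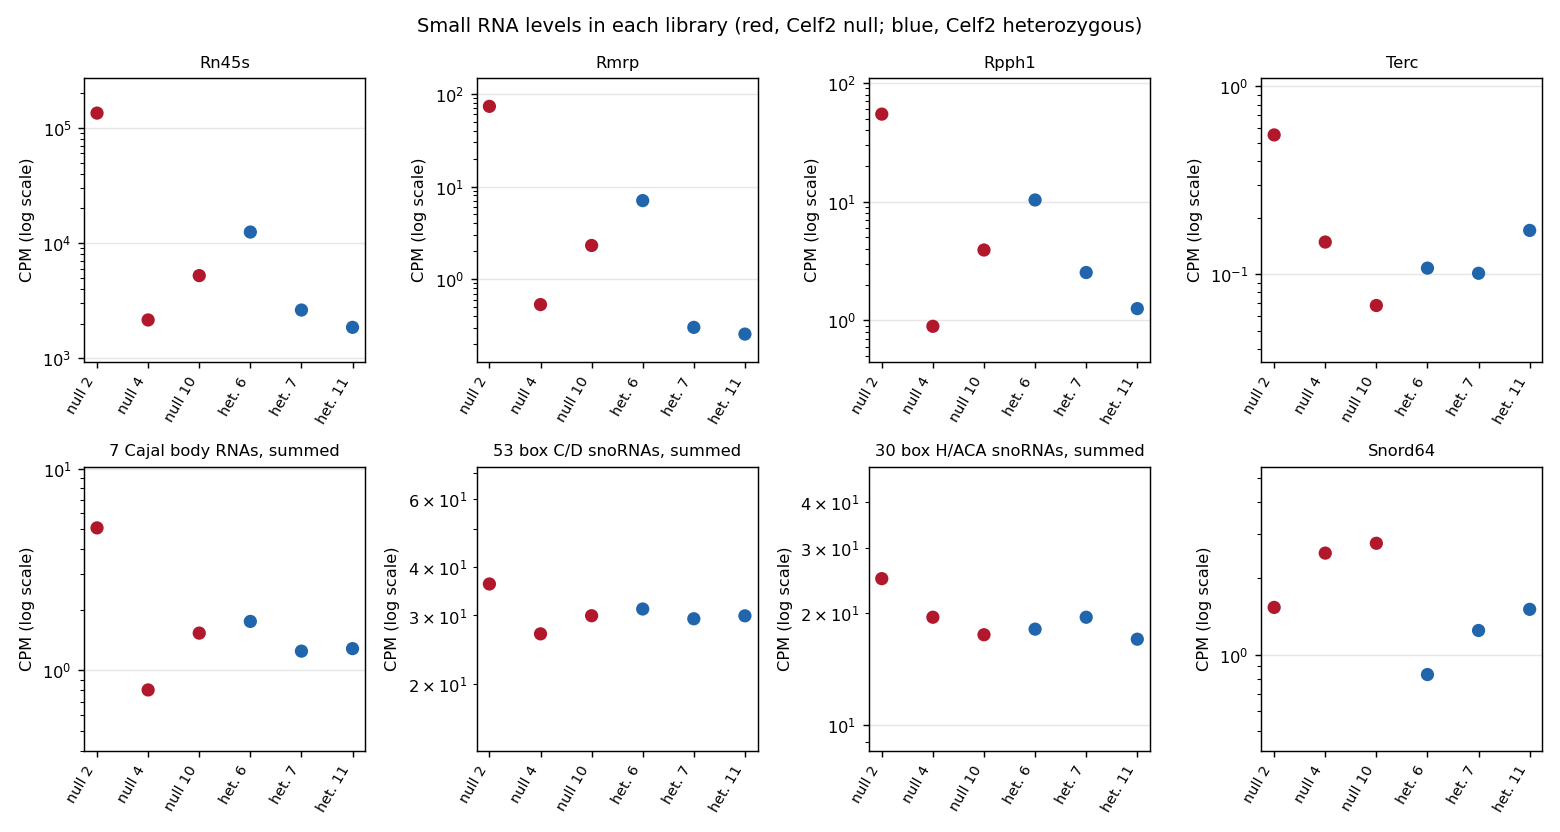
Level in each library, in CPM on a log scale that differs between panels, of Rn45s, Rmrp, Rpph1, Terc, the summed Cajal body RNAs, box C/D snoRNAs and box H/ACA snoRNAs, and Snord64; each point is 1 library, red for null and blue for heterozygous. Null replicate 2 is the highest point in every panel except that of Snord64.

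Rmrp, the RNA subunit of RNase MRP, was at 73.2, 0.533 and 2.31 CPM in null replicates 2, 4 and 10, against 7.05, 0.303 and 0.256 CPM in heterozygous replicates 6, 7 and 11. Rpph1, the RNA subunit of RNase P, was at 54.7, 0.889 and 3.91 CPM in null replicates 2, 4 and 10, against 10.3, 2.52 and 1.25 CPM in heterozygous replicates 6, 7 and 11. The 3 highest libraries of Rmrp and of Rpph1 were null replicate 2, heterozygous replicate 6 and null replicate 10, the order seen for Rn45s. The log2 fold change was 3.27 for Rmrp (SE 2.36, edgeR adjusted p = 0.871) and 2.05 for Rpph1 (SE 1.81, edgeR adjusted p = 0.898). Without null replicate 2 it was -0.88 for Rmrp and -0.99 for Rpph1. The 2 RNAs did not keep a fixed proportion to Rn45s. The counts of Rmrp were 0.0544%, 0.0248% and 0.0444% of those of Rn45s in null replicates 2, 4 and 10, against 0.0566%, 0.0116% and 0.0138% in heterozygous replicates 6, 7 and 11. The counts of Rpph1 were 0.0407%, 0.0414% and 0.0750% of those of Rn45s in null replicates 2, 4 and 10, against 0.0829%, 0.0964% and 0.0676% in heterozygous replicates 6, 7 and 11.

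The RNAs of telomerase and of the minor spliceosome were near the floor outside null replicate 2. Terc, which holds the template for telomere repeats, had 14, 5 and 2 counts in null replicates 2, 4 and 10, against 4, 3 and 6 counts in heterozygous replicates 6, 7 and 11. Rnu11 had 12, 0 and 1 counts in null replicates 2, 4 and 10, against 1, 1 and 0 counts in heterozygous replicates 6, 7 and 11. Rnu12 had 6, 3 and 1 counts in null replicates 2, 4 and 10, against 1 count in each of heterozygous replicates 6, 7 and 11. These 3 RNAs did not pass the filter on low counts and have no fold change. Terc was highest in null replicate 2. Rnu11 and Rnu12 had 3 and 7 counts outside it and met the minimum only through it, so their order of libraries follows from the choice of members. In Terc and Rnu11 the genotypes overlapped.

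Cajal body RNAs, which guide modification of spliceosomal RNAs, summed to 5.08, 0.80 and 1.53 CPM in null replicates 2, 4 and 10, against 1.75, 1.25 and 1.28 CPM in heterozygous replicates 6, 7 and 11. Scarna2 had 45, 1 and 3 counts in null replicates 2, 4 and 10, against 15, 4 and 2 counts in heterozygous replicates 6, 7 and 11. Scarna10, named after its values were seen and a member only through null replicate 2, had 41, 0 and 3 counts in null replicates 2, 4 and 10, against 3, 0 and 1 counts in heterozygous replicates 6, 7 and 11. Scarna2 and Scarna10 thus held 45 and 41 of the 129 Cajal body RNA counts in null replicate 2. Scarna6 and Scarna13, the 2 members of this class that were tested, differed less between libraries. Scarna6 was at 0.591, 0.267 and 0.340 CPM in null replicates 2, 4 and 10, against 0.565, 0.269 and 0.313 CPM in heterozygous replicates 6, 7 and 11 (log2 fold change 0.01, SE 0.47). Its sign turned with several settings, among them library size alone (-0.08). Scarna13 was at 0.512, 0.178 and 0.442 CPM in null replicates 2, 4 and 10, against 0.350, 0.337 and 0.142 CPM in heterozygous replicates 6, 7 and 11 (log2 fold change 0.41, SE 0.52). Single libraries moved this value, which was 0.10 without heterozygous replicate 11, 0.15 without null replicate 2 and 0.78 without null replicate 4.

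The snoRNAs as classes differed less across the same libraries. All members but Rn45s together took 0.0173% of the counts in null replicate 2 (95% Wilson interval 0.0168% to 0.0178%), 0.00524% in null replicate 4 (0.00500% to 0.00549%) and 0.00590% in null replicate 10 (0.00563% to 0.00619%). They took 0.00707% in heterozygous replicate 6 (0.00680% to 0.00734%), 0.00560% in heterozygous replicate 7 (0.00534% to 0.00588%) and 0.00538% in heterozygous replicate 11 (0.00514% to 0.00563%). Null replicate 2 lay above the other libraries, and most of that excess was Rmrp and Rpph1, which held 3245 of its 4993 counts. Box C/D snoRNAs outside the imprinted cluster summed to 36.2, 26.9 and 29.96 CPM in null replicates 2, 4 and 10, against 31.2, 29.4 and 29.9 CPM in heterozygous replicates 6, 7 and 11. Box H/ACA snoRNAs summed to 24.8, 19.5 and 17.5 CPM in null replicates 2, 4 and 10, against 18.1, 19.5 and 17.0 CPM in heterozygous replicates 6, 7 and 11. Null replicate 2 had the highest sum in both classes and null replicate 4 the lowest of box C/D snoRNAs, and the genotypes overlapped.

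Length went with the excess in null replicate 2. Annotated lengths ran up to 423 bases (Terc), and the bounds of 100 and 140 bases used here were chosen after values were seen. The 7 members with fewer than 10 counts outside null replicate 2 were left out of these values, since that library helped to choose them. Among the 7, Snora62, Snord43 and Snord93 were highest in another library. This left 90 members. The 11 of them over 140 bases summed to 140.2, 5.90 and 10.7 CPM in null replicates 2, 4 and 10, against 21.7, 7.47 and 5.75 CPM in heterozygous replicates 6, 7 and 11. Without Rmrp and Rpph1 the other 9 summed to 12.4, 4.47 and 4.45 CPM in null replicates 2, 4 and 10, against 4.33, 4.65 and 4.24 CPM in heterozygous replicates 6, 7 and 11. The 47 members of up to 100 bases summed to 29.9, 26.1 and 28.8 CPM in null replicates 2, 4 and 10, against 27.8, 27.4 and 27.8 CPM in heterozygous replicates 6, 7 and 11. The 31 members of over 100 and up to 140 bases summed to 23.8, 19.1 and 18.2 CPM in null replicates 2, 4 and 10. In heterozygous replicates 6, 7 and 11 they summed to 19.6, 19.4 and 17.7 CPM. Null replicate 2 thus had the highest sum at every length. It stood furthest apart among the long members, also without the RNase RNAs. Among the short ones all libraries lay between 26.1 and 29.9 CPM. The count table gives other lengths for some RNAs, such as 61 bases for Scarna2, which GENCODE gives as 414. Binned by the table's lengths, the 9 members over 140 bases other than Rmrp and Rpph1 summed to 10.8, 4.56 and 4.56 CPM in null replicates 2, 4 and 10, against 4.12, 4.58 and 4.27 CPM in heterozygous replicates 6, 7 and 11.

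The same held member by member. The level in null replicate 2 over the pooled level of the other libraries had a median of 1.05 over 47 members of up to 100 bases, 1.21 over 31 members of over 100 and up to 140 bases and 4.55 over 11 members over 140 bases. With the table's lengths these medians were 1.07 over 53 members, 1.201 over 25 and 3.88 over 11. A ratio was given only where the other libraries held at least 10 counts together. Among the same members null replicate 2 was the highest library for 13 of 47 of up to 100 bases (27.7%), 10 of 31 of over 100 and up to 140 bases (32.3%) and 10 of 11 over 140 bases (90.9%). The exception among the 11 was Snora23, with 14 counts in all. Over the 90 members it was the highest library for 34 (37.8%), and each of the other 5 libraries was the highest for 10 to 14. Over the 53 members that passed the filter on low counts it was the highest for 22 (41.5%), against 18.4% of the 15925 genes that passed the same filter. Across 89 members Spearman's rho between length and ratio was 0.34, a description over members that share libraries and, in part, hosts.

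**Figure D2:**
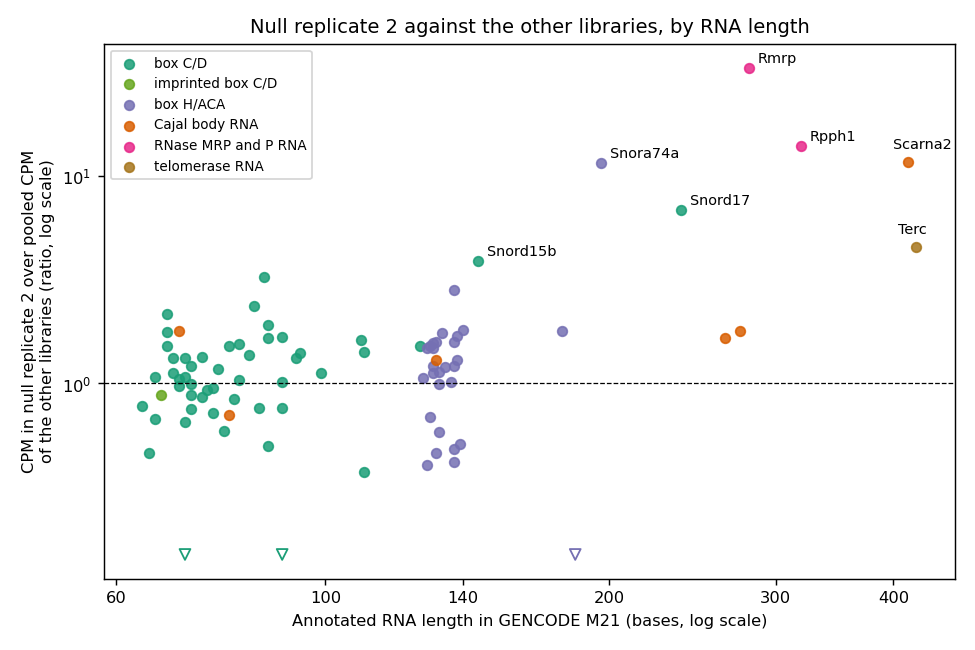
Ratio of the CPM in null replicate 2 to the pooled CPM of the other libraries against annotated RNA length, both on log scales, for 89 members; colours mark classes, the dashed line marks a ratio of 1 and open triangles mark 3 members with 0 counts in null replicate 2. Rmrp at 33.0, Rpph1 at 13.9, Scarna2 at 11.7 and Snora74a at 11.5 lie highest, and members of up to 100 bases spread around 1.

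Long snoRNAs of the box C/D and box H/ACA classes differed in how far null replicate 2 stood apart. Snord17, a box C/D RNA of 238 bases from an intron of the sorting nexin gene Snx5, was at 1.69, 0.237 and 0.374 CPM in null replicates 2, 4 and 10, against 0.323, 0.135 and 0.171 CPM in heterozygous replicates 6, 7 and 11. Snord15b, of 145 bases, and Snora74a, of 196 bases, were named after their values were seen. Snord15b was at 1.46, 0.326 and 0.408 CPM in null replicates 2, 4 and 10, against 0.242, 0.303 and 0.598 CPM in heterozygous replicates 6, 7 and 11. Snora74a had 23, 6 and 2 counts in null replicates 2, 4 and 10, against 3, 0 and 2 counts in heterozygous replicates 6, 7 and 11. Null replicate 2 over the other libraries was 6.82 for Snord17, 3.88 for Snord15b and 11.5 for Snora74a. Not every long member stood so far apart. Snora23, a box H/ACA RNA of 184 bases, had 0 counts in null replicate 2 and 14 in all. Snora81, a box H/ACA RNA of 178 bases from the translation factor gene Eif4a2, was at 4.89, 3.08 and 2.58 CPM in null replicates 2, 4 and 10, against 2.21, 3.10 and 2.71 CPM in heterozygous replicates 6, 7 and 11, a ratio of 1.80. Its log2 fold change was 0.39, and 0.09 without null replicate 2. Progenitor markers were also highest in null replicate 2 (697 CPM, against 531 to 603 CPM in the other libraries), and their part in these differences was not tested.

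Between the genotypes, no member passed. Of 97 members, 53 passed the filter on low counts and 44 did not, and 0 of the 53 were called at an adjusted p under 0.05 in edgeR, against 0.00628% of the 15925 genes tested (1 gene). At an unadjusted p under 0.05, 4 of 53 were counted, against 7.06% of all genes tested. DESeq2 called 0 members, against 0.402% of all genes tested (64 genes), and counted 2 members at an unadjusted p under 0.05, against 6.89%. With limma-voom 0 members were called, against 0% of all genes tested, and 3 had an unadjusted p under 0.05, against 7.05%. The groups did not overlap for 9 of 53, against 12.7% of all genes tested. Null values lay above for 5 (Snora52, Snord104, Snord12, Snord64 and Snord95), against a background of 6.21%, and below for 4 (Snord100, Snord4a, Snord58b and Snord88c), against 6.47%. These counts lay near the background and show nothing particular to the members.

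Positive fold changes outnumbered negative ones, and the order turned without null replicate 2. Among the 53, 33 had a positive and 20 a negative log2 fold change (median 0.12), against 49.7% positive and a median near 0 (-0.001) over all genes tested. Without null replicate 2, 58 members were tested, and 23 had a positive and 35 a negative value (median -0.08). The standard error had a median of 0.36 over the tested members and 0.13 over all genes tested. It was 0.45 for the 16 members with under 100 summed counts and 0.26 for the 13 members with at least 200, Rmrp, Rpph1 and Rn45s apart. Differences of the size of these errors were not detectable at this depth.

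**Figure D3:**
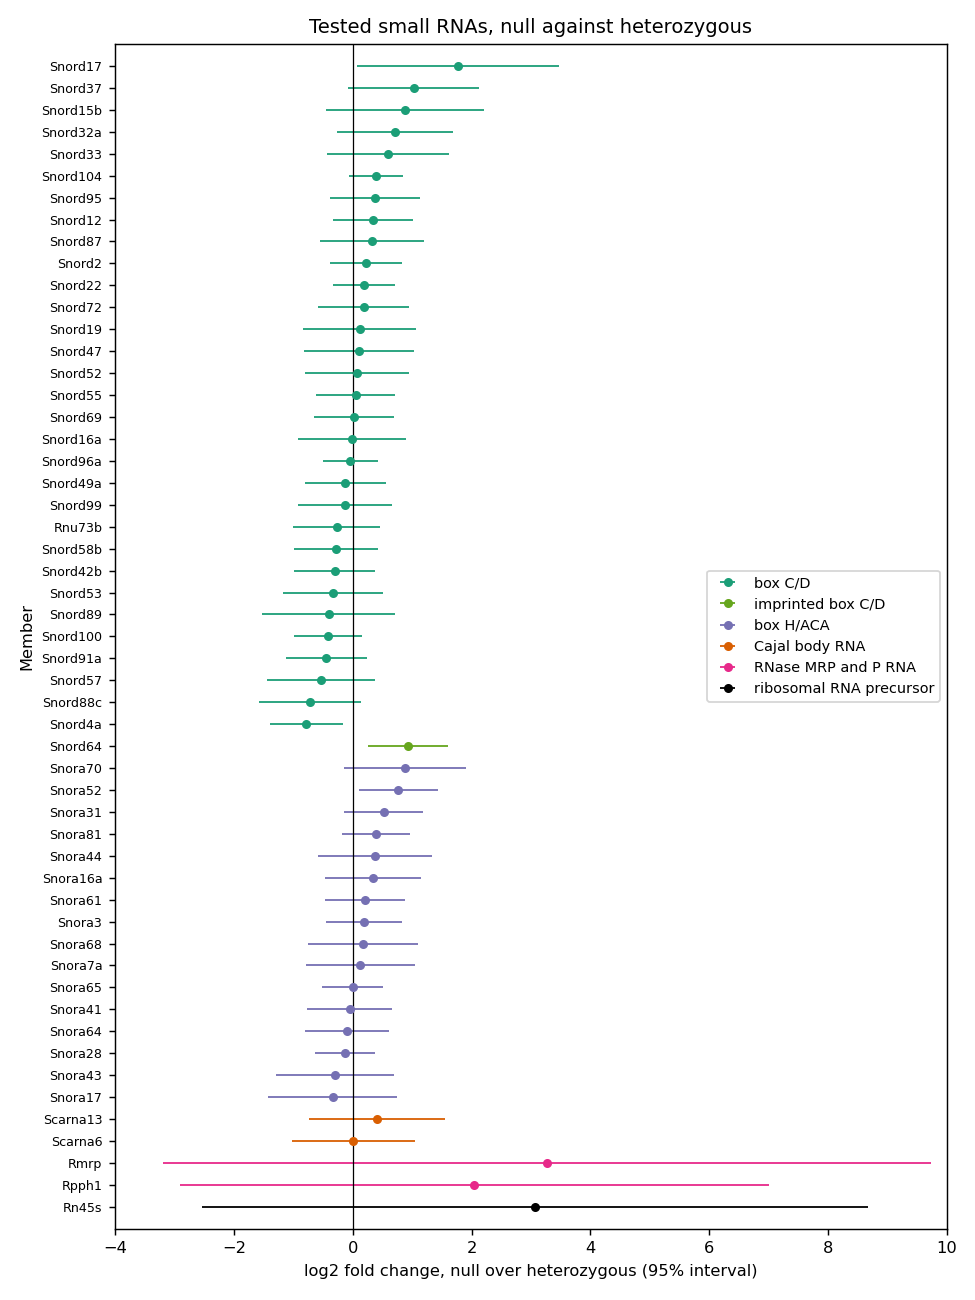
Fitted log2 fold change, null over heterozygous, of the 53 tested members with its 95% interval, grouped by class and sorted within each; points are estimates and horizontal lines intervals. Rmrp, Rpph1 and Rn45s have the widest intervals, and 4 of the intervals exclude 0, those of Snord17, Snord4a, Snord64 and Snora52.

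Snord64, a box C/D snoRNA of the imprinted region around Snrpn that is expressed from the paternal chromosome, had the smallest p. It was at 1.54, 2.52 and 2.75 CPM in null replicates 2, 4 and 10, against 0.834, 1.25 and 1.51 CPM in heterozygous replicates 6, 7 and 11. All null values lay above all heterozygous values, although null replicate 2 exceeded heterozygous replicate 11 by little. The log2 fold change was 0.93 (SE 0.30, unadjusted p = 0.0107, edgeR adjusted p = 0.563), and it lay between 0.72 and 1.14 when single libraries were left out. Of the RNAs around it, Snrpn lay near 0, and Ipw had the same sign as Snord64. Values of the host RNA Snhg14 are not shown here. Snrpn was at 8.94, 8.86 and 9.08 CPM in null replicates 2, 4 and 10, against 8.72, 9.93 and 8.57 CPM in heterozygous replicates 6, 7 and 11 (log2 fold change -0.02, SE 0.14). The long non-coding RNA Ipw was at 17.5, 9.36 and 7.00 CPM in null replicates 2, 4 and 10, against 9.28, 7.30 and 5.10 CPM in heterozygous replicates 6, 7 and 11 (log2 fold change 0.64, SE 0.34, edgeR adjusted p = 0.779). In Ipw null replicate 2 was the highest library, whereas in Snord64 it was the lowest of the null libraries.

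**Figure D4:**
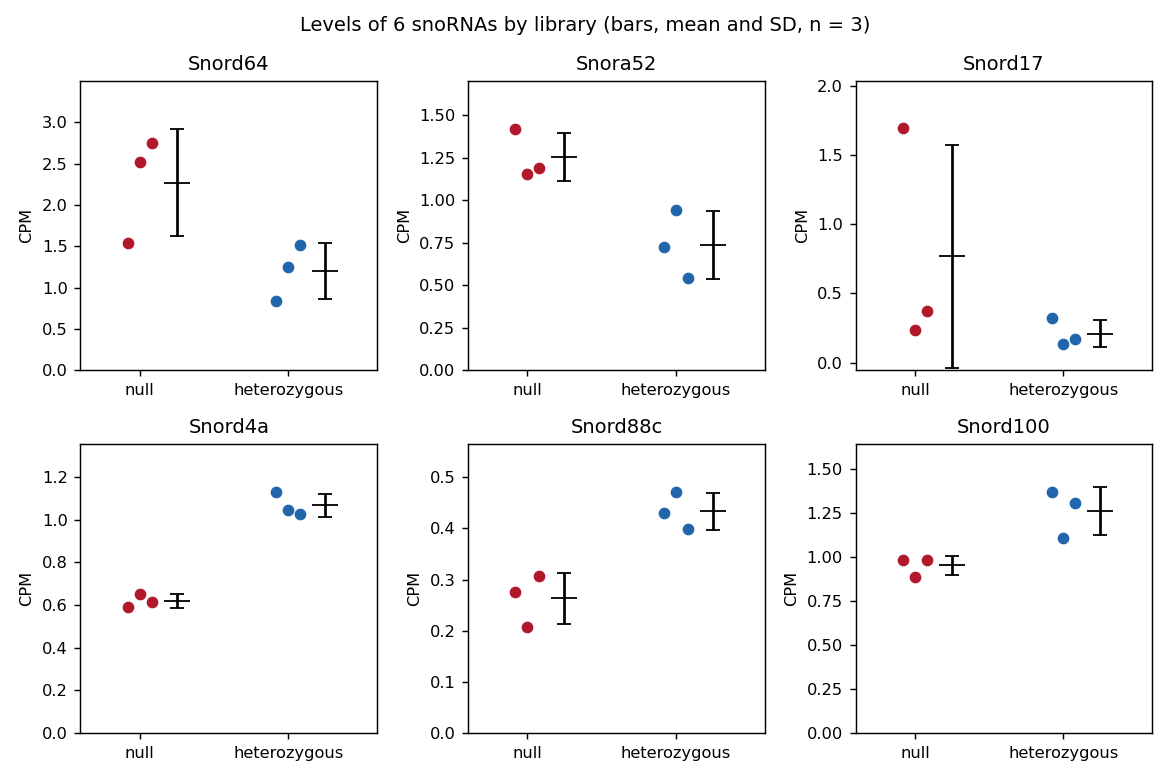
CPM by library of Snord64, Snora52, Snord17, Snord4a, Snord88c and Snord100; points are libraries, red for null on the left and blue for heterozygous on the right, and bars give the mean and SD (n = 3 each). Snord64 and Snora52 lie higher and Snord4a, Snord88c and Snord100 lower in null libraries without overlap, and in Snord17 null replicate 2 lies apart at 1.69 CPM.

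Among the other box C/D snoRNAs, 17 of 31 tested had positive and 14 negative fold changes, with a median of 0.05. Snord4a, from an intron of the ribosomal protein gene Rpl23a, was at 0.591, 0.652 and 0.612 CPM in null replicates 2, 4 and 10, against 1.13, 1.04 and 1.03 CPM in heterozygous replicates 6, 7 and 11. The groups did not overlap (0.618 ± 0.0309 CPM in null and 1.07 ± 0.0557 CPM in heterozygous libraries, SD, n = 3 each). The log2 fold change of -0.78 (SE 0.28) did not pass (edgeR unadjusted p = 0.0170, edgeR adjusted p = 0.629). These levels rest on 15, 22 and 18 counts in null replicates 2, 4 and 10 and on 42, 31 and 36 counts in heterozygous replicates 6, 7 and 11. Snord88c was at 0.276, 0.207 and 0.306 CPM in null replicates 2, 4 and 10, against 0.430, 0.471 and 0.399 CPM in heterozygous replicates 6, 7 and 11 (log2 fold change -0.72, SE 0.39, edgeR adjusted p = 0.774). Snord88c shares 94.4% of its bases with Snord88a, so its counts are uncertain. Snord100, from Rps12, was at 0.985, 0.889 and 0.986 CPM in null replicates 2, 4 and 10, against 1.37, 1.11 and 1.31 CPM in heterozygous replicates 6, 7 and 11 (log2 fold change -0.41, SE 0.26, edgeR adjusted p = 0.819). Snord57 and Snord91a, from the introns of Nop56 and Tsr1, had log2 fold changes of -0.53 (SE 0.41) and -0.44 (SE 0.31), and their groups overlapped. Snord57 was -0.33 without null replicate 4, and Snord91a was -0.83 without null replicate 2 and -0.23 without null replicate 10.

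In the other direction, Snord17 had a log2 fold change of 1.77 (SE 0.76, unadjusted p = 0.0425, edgeR adjusted p = 0.690), which was 0.50 without null replicate 2. Snord37, from the elongation factor gene Eef2, was at 0.236, 0.474 and 0.476 CPM in null replicates 2, 4 and 10, against 0.134, 0.135 and 0.313 CPM in heterozygous replicates 6, 7 and 11 (log2 fold change 1.02, SE 0.50, edgeR adjusted p = 0.732). Its groups overlapped, since null replicate 2 lay below heterozygous replicate 11, and the log2 fold change was 1.55 without the heterozygous one. Snord104 was at 2.25, 2.58 and 2.52 CPM in null replicates 2, 4 and 10, against 2.07, 1.78 and 1.74 CPM in heterozygous replicates 6, 7 and 11 (log2 fold change 0.39, SE 0.21, edgeR adjusted p = 0.767). Snord22, from the non-coding host Snhg1, was at 4.18, 2.37 and 2.99 CPM in null replicates 2, 4 and 10, against 3.15, 2.52 and 2.65 CPM in heterozygous replicates 6, 7 and 11. Snord96a was at 2.44, 2.55 and 2.01 CPM in null replicates 2, 4 and 10, against 2.13, 2.59 and 2.51 CPM in heterozygous replicates 6, 7 and 11. Their log2 fold changes were 0.19 (SE 0.24, -0.05 without null replicate 2) for Snord22 and -0.04 (SE 0.21) for Snord96a, with overlapping groups.

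Of 16 tested box H/ACA snoRNAs, 10 had positive and 6 negative fold changes, with a median of 0.19. Snora52, from the ribosomal stalk gene Rplp2, was at 1.42, 1.16 and 1.19 CPM in null replicates 2, 4 and 10, against 0.726, 0.943 and 0.541 CPM in heterozygous replicates 6, 7 and 11. All null values lay above all heterozygous values (log2 fold change 0.77, SE 0.30, unadjusted p = 0.0261, edgeR adjusted p = 0.639). Snora70, from Rpl10, was at 1.34, 0.563 and 0.510 CPM in null replicates 2, 4 and 10, against 0.619, 0.303 and 0.342 CPM in heterozygous replicates 6, 7 and 11 (log2 fold change 0.88, SE 0.46, edgeR adjusted p = 0.766). It was 0.33 without null replicate 2. Snora28, from the translation factor gene Eif5, was at 2.52, 2.28 and 2.11 CPM in null replicates 2, 4 and 10, against 2.34, 3.20 and 2.05 CPM in heterozygous replicates 6, 7 and 11. Snora65, from Rpl12, was at 2.48, 2.01 and 2.24 CPM in null replicates 2, 4 and 10, against 2.85, 1.95 and 1.91 CPM in heterozygous replicates 6, 7 and 11. Their groups overlapped, with log2 fold changes of -0.13 (SE 0.23) and -0.00 (SE 0.23). The sign of Snora65 turned with several settings, and that of Snora28 turned without heterozygous replicate 7.

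Host genes had smaller fold changes than the snoRNAs they hold. In GENCODE M21, 86 of 96 annotated members lay within the span of a gene on the same strand, 10 lay outside, and 84 had a host row in the table, from 62 hosts. Of these, 22 hosts encoded ribosomal proteins and held 32 members. For 46 tested members with a tested host (38 hosts), host log2 fold changes lay between -0.22 and 0.21, and 0 hosts were called. Their median size was 0.06, against 0.29 for the snoRNAs they hold and 0.11 for all genes tested. The median standard error of the tested members, 0.36, exceeded these sizes. The signs of member and host were the same for 29 of 46, and Spearman's rho across members was 0.38, a description over members that share hosts and libraries. Ribosomal protein genes have near-identical pseudogenes, so host counts are uncertain.

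Single pairs show how far apart the estimates lay. Snord17 had a log2 fold change of 1.77 and its host Snx5 -0.01 (SE 0.09). Snord37 had 1.02 and Eef2 0.09 (SE 0.06). Snora52 had 0.77 and Rplp2 0.02 (SE 0.08), and Snord4a had -0.78 and Rpl23a -0.13 (SE 0.20). RNAs of 1 host did not always take the same sign. Snhg12, a non-coding host at 0.21 (SE 0.15), holds Snora44 (0.38), Snora16a (0.35), Snora61 (0.21) and Snord99 (-0.13). Rpl13a holds Snord32a (0.72) and Snord33 (0.60) among its tested members, and Rpl23a holds Snord4a (-0.78) and Snord42b (-0.30). These members were listed by host and none of them passed (0 called), and the difference between member and host was not tested.

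**Figure D5:**
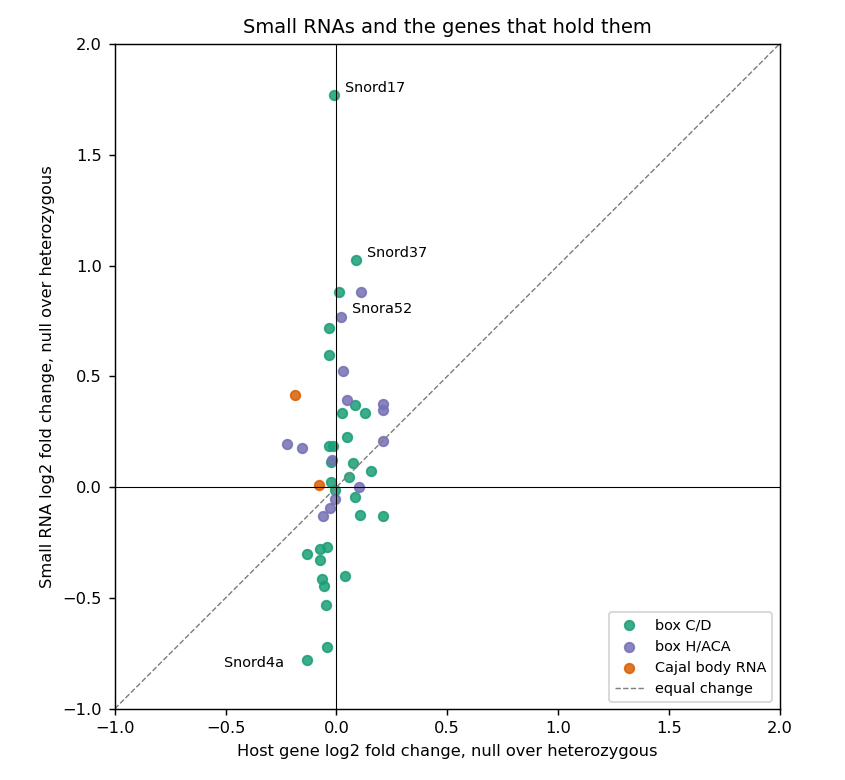
Log2 fold change, null over heterozygous, of 46 tested snoRNAs and Cajal body RNAs against that of the gene that holds each; points are members, colours mark classes and the dashed line marks equal change. Hosts lie between -0.22 and 0.21 and members between -0.78 and 1.77.

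Per kilobase of length, levels of the small RNAs mostly lay below those of their hosts. With lengths as the count table gives them, the mean level of a member per kilobase was below that of its host for 80 of 84 members, with a median of 9.85% of the host. The 4 exceptions, named after their values were seen, were Snord91a at 2.05 times the level of Tsr1, Snord42b at 1.92 times and Snord4a at 1.42 times that of Rpl23a, and Snord69 at 1.15 times that of Gnl3. These depend on the length used. With GENCODE lengths of the members 81 of 84 lay below the host (median 7.03%), Snord69 among them at 0.84 times, and Snord91a was at 1.32, Snord42b at 1.53 and Snord4a at 1.40 times the host. Spliced host messages and introns were not counted apart, so the share of a member's counts that came from unspliced host RNA was not tested. How well the libraries recovered RNAs as short as the members was not tested either. These levels therefore do not give the abundance of a member relative to its host.

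No gene for a partner protein or a host non-coding RNA was called. In 16 lists, 201 genes were tested, 0 were called, and 9 (4.48%) had an unadjusted p under 0.05, against 7.06% of all genes tested. List medians of the log2 fold change lay between -0.06 and 0.09. All 4 box C/D proteins were tested, 2 positive and 2 negative, with the methyltransferase fibrillarin (Fbl) at 0.06 (SE 0.10, -0.03 with library size alone) and Nop56 at -0.05 (SE 0.10). Of 4 box H/ACA proteins 1 was positive and 3 negative, with the pseudouridine synthase Dkc1 at -0.08 (SE 0.11) and Nhp2 at -0.05 (SE 0.12). Of 10 snoRNP assembly factors 8 were positive (median 0.06), with the ATPase Ruvbl2 at 0.18 (SE 0.09).

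Proteins of the RNases, of telomerase and of RNA polymerases I and III gave similar values. Of 11 proteins of RNase MRP and RNase P 3 were positive and 8 negative (median -0.03), with Rpp25l at -0.23 (SE 0.13) and Rpp25 at 0.14 (SE 0.13). Tert, the reverse transcriptase of telomerase, was at 10.6, 7.64 and 6.29 CPM in null replicates 2, 4 and 10, against 6.97, 4.41 and 6.67 CPM in heterozygous replicates 6, 7 and 11 (log2 fold change 0.44, SE 0.23, edgeR adjusted p = 0.766), and 0.21 without null replicate 2. Of 26 tested genes of RNA polymerase I and ribosome assembly 20 were positive (median 0.03), with the catalytic subunit Polr1a at 0.22 (SE 0.14) and the terminator Ttf1 at 0.19 (SE 0.14). Of 25 genes of RNA polymerase III transcription 15 were positive (median 0.04). Snapc1, of the complex that activates snRNA genes, was at 0.29 (SE 0.11, edgeR adjusted p = 0.639) and Gtf3c1 at 0.20 (SE 0.09, edgeR adjusted p = 0.684). None of these genes passed (0 called).

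Spliceosomal and processing proteins were likewise uncalled. Prpf8, at the core of the spliceosome, was at 395, 404 and 358 CPM in null replicates 2, 4 and 10, against 328, 346 and 321 CPM in heterozygous replicates 6, 7 and 11 (log2 fold change 0.22, SE 0.07, edgeR adjusted p = 0.563). The spliceosomal helicase Snrnp200 was at 0.15 (SE 0.06, edgeR adjusted p = 0.660), and of 19 snRNP-specific proteins 13 were positive and 6 negative (median 0.07). Of 17 Sm and LSm proteins 5 were positive and 12 negative (median -0.06), with Lsm11 at -0.20 (SE 0.09) and Lsm7 at -0.33 (SE 0.18, -0.50 without null replicate 10). Of 14 Integrator subunits, which process the ends of snRNAs, 12 were positive (median 0.09), with Ints8 at 0.33 (SE 0.13, edgeR adjusted p = 0.639) and Ints10 at 0.17 (SE 0.12). Of 15 snRNP assembly and Cajal body genes 5 were positive and 10 negative, with Gemin8 at 0.21 (SE 0.19) and Gemin7 at -0.12 (SE 0.10). Of 17 genes of the nuclear exosome, which trims snoRNAs, 5 were positive and 12 negative, with C1d at -0.17 (SE 0.09) and Rbm7 at -0.15 (SE 0.11).

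Host non-coding RNAs held the smallest p among the lists. Snhg20 was at 16.7, 12 and 16.5 CPM in null replicates 2, 4 and 10, against 23.6, 20.8 and 19.7 CPM in heterozygous replicates 6, 7 and 11 (log2 fold change -0.51, SE 0.15, edgeR adjusted p = 0.522). Snhg11 was at 1246, 1119 and 1275 CPM in null replicates 2, 4 and 10, against 1319, 1466 and 1459 CPM in heterozygous replicates 6, 7 and 11 (log2 fold change -0.22, SE 0.07, edgeR adjusted p = 0.543). In both the groups did not overlap, and of 21 such RNAs tested 7 were positive and 14 negative (median -0.04). Proteins of the signal recognition particle (5 of 7 positive), of the 7SK particle (4 of 7 positive) and of Y RNA particles (1 of 2 positive) had 0 called. Among them Srp54a was at 0.44 (SE 0.15, edgeR adjusted p = 0.591), Srp19 at -0.19 (SE 0.09), Ccnt2 at 0.18 (SE 0.10), Hexim1 at 0.11 (SE 0.08), Ssb at -0.08 (SE 0.07) and Trove2, the Ro protein, at 0.03 (SE 0.08, -0.05 with library size alone). Srp54a has near-identical copies, and its counts are uncertain.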

How the data were processed

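RNA from hemibrains of newborn mice was measured in 3 null and 3 heterozygous libraries. The table that the authors deposited holds raw read counts for each gene symbol and a length per symbol, which served for levels per kilobase of hosts and members. The submitters' processing notes name the tools cutadapt, CASAVA, STAR, bedtools, Picard and MACS2, and hg19 and mm9 as builds, without roles or versions. Counting tool, strand and annotation were not given in the sources used here. Reads of a snoRNA may therefore also count to its host, and overlapping and antisense genes are uncertain. All pairs of libraries differed by more than sampling noise (chi-square per gene at least 12.8).

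Genes were filtered with filterByExpr and tested over the whole table with edgeR 4.0.16 in R 4.3.3 (quasi-likelihood test, TMM factors, robust dispersion, Benjamini-Hochberg adjustment at 0.05). The biological coefficient of variation was 13.9%. A standard error is the size of the fold change over the root of its F statistic. CPM use TMM-scaled library sizes. Permutation tests were exact over 20 splits of 3 against 3. The steps were tested on simulated counts. DESeq2 1.42.0 and limma 3.58.1 served as alternatives, with other scalings, filters and each library left out.

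Names, lengths, sequences and same-strand hosts came from GENCODE M21 (GRCm38), which differs from mm9, so no coordinates are given. It holds 96 of the 97 members. All 205 list entries were found by current or older symbol. The members and lists were chosen with earlier results of these data known. The rule for named genes took the 3 members of highest mean CPM per class, the 5 tested members with the smallest p in each direction, up to 2 genes per list and Celf2.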

Additional observations from a re-analysis of the deposited data

How the results depend on the processing

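No paired analysis was possible because the groups share no replicate number. Members called were 0 in every alternative run. Genes called over the whole table, 1 in the report, were 0 with DESeq2 size factors, a minimum of 1 CPM in 3 libraries, Rn45s left out, limma-voom and no robust estimation, 2 with upper-quartile scaling, library size alone and no low-count filter, and 64 with the DESeq2 Wald test. They were 0 to 4 when single libraries were left out, with 4 without null replicate 10. Genes with an unadjusted p under 0.05 were 599 without heterozygous replicate 7 and 1554 without heterozygous replicate 11. The median log2 fold change of members ran from -0.083 without null replicate 2 to 0.210 without null replicate 4, and was 0.034 with library size alone, where the median of all genes was -0.086. Members other than Rn45s held 196.42 of every 1000000 counts in null replicate 2 with Rn45s left out of the raw total, against 173.18 with it, on totals without TMM scaling. Only the total differs between these values. Of 771 values of 52 single genes, 748 kept direction and side of the threshold and 23 changed sign. With single libraries left out, Rn45s ran from -0.615 to 4.404, Rmrp from -0.875 to 6.480, Rpph1 from -0.994 to 3.396, Scarna6 from -0.356 to 0.412 and Snord22 from -0.052 to 0.364, each lowest without null replicate 2. Over the same fits Celf2 ran from -0.176 to 0.039, Snora65 from -0.106 to 0.216, Snora28 from -0.262 to 0.067, Snord96a from -0.126 to 0.055, Nop56 from -0.118 to 0.049, Nhp2 from -0.154 to 0.072 and Trove2 from -0.025 to 0.094. Celf2 was 0.039 without null replicate 10 and 0.028 without heterozygous replicate 6. Single libraries also turned Scarna6 (-0.172 without heterozygous replicate 7 and -0.124 without heterozygous replicate 11), Snora65 (0.073 without null replicate 4), Snord96a (0.012) and Trove2 (-0.025), the last pair without heterozygous replicate 7. Among the other settings, Scarna6 was -0.011 under upper-quartile scaling and -0.084 under library size alone, which gave -0.032 for Fbl and -0.053 for Trove2. Snora65 was 0.001 with DESeq2 size factors, 0.002 without a filter and with the DESeq2 Wald test, 0.003 with Rn45s left out and 0.007 with limma-voom. Rn45s was 1.522 with limma-voom and has no value where it was left out of the table. Its value in the DESeq2 Wald test is not given here, although 53 members had a fold change there (35 positive and 18 negative). The cause of these changes was not tested.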
